A study of Mus musculus with 10 samples.

Results

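The genes described here encode factors of the complement and coagulation systems, the plasma cascades that kill microbes and stop bleeding. A list of 44 genes, 22 of complement and 22 of coagulation, was drawn up by function, and a gene was kept if the array annotation named it alone on a probe set. That left 39 of the 12366 genes of the array, 18 of complement and 21 of coagulation. C1rl, C3, Cfd and Cpb2 were not analysed here. C4b shares its only named probe set with C4a and could not be assigned. That probe set averaged 13.78 ± 0.14 in mutant livers and 13.63 ± 0.13 in control livers (SD, n = 5 each).

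Livers came from 5 mutant mice, genotype DicerloxP/loxP;Afp-Cre+, and from 5 mice labelled control, whose alleles the labels do not give. In the mutants both copies of the Dicer1 gene carry loxP sites, and Cre recombinase is driven by regulatory sequence of Afp, which is active in fetal hepatoblasts and so in the hepatocytes and bile duct cells that descend from them. Mice of both groups were 28 days old, of a strain given only as mixed, and were fasted for 5 hours. Each animal gave 1 Affymetrix array of whole liver RNA. In whole liver, fewer cells of a type and less RNA per cell cannot be told apart.

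Complement starts by 3 routes. In the classical route C1 proteases respond to antibody, in the lectin route MBL and MASP proteins respond to microbial sugars, and the alternative route amplifies deposited C3. All of them lead to C5 and to the terminal proteins, which build a pore in the target membrane. Coagulation starts from tissue factor with factor VII or from the contact proteases, runs through factors X and II (thrombin), and ends in fibrin, made from the chains of fibrinogen. Hepatocytes secrete most of these proteins.

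Values are on the log2 scale of the deposited table, on which a difference of 1 is a change by a factor of 2. A difference is mutant minus control, tested with limma over all 12366 genes, and a gene was called at a Benjamini-Hochberg adjusted p under 0.05. Array medians lay between 6.40 and 6.67 and values reached 16.65. All 39 genes had a group mean above 3.60, the 25th percentile of all values. Dicer1 averaged 5.75 ± 0.23 in mutant livers and 8.06 ± 0.04 in control livers on 1 probe set, and 7.06 ± 0.10 and 8.08 ± 0.10 on the other (SD, n = 5 each). Hepatocyte markers gave a summed level of 18.27 to 18.45 in mutants and 18.30 to 18.46 in controls (log2 of the sum over 8 genes), and 0 of the 8 were called by limma, with 3 at an unadjusted p under 0.05. Such a sum is set mainly by the brightest genes. Their control means reached 16.44, near the highest value of 16.65, where differences can be compressed. Of 9 stellate cell and fibroblast markers, 5 were called higher and 0 lower in mutants, against 8.62% and 11.5% of all genes. All 9 differences lay above 0, from 0.29 to 1.13. Their summed level was 14.48 to 15.09 in mutants and 14.09 to 14.30 in controls. Their part in the results was not tested. Mpo, Krt7, Cftr and Cidec, which mark neutrophils, bile duct cells (Krt7 and Cftr) and adipocytes, lay below 3.60 in both groups.

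A larger share of complement than of coagulation genes was called in mutant liver, but the contrast was narrower after quantile normalization. Of the 18 complement genes, 2 rose and 7 fell, and of the 21 coagulation genes 1 rose and 4 fell. Over all genes 20.1% were called, 8.62% higher and 11.5% lower in mutants, so the coagulation share of 23.8% lay near the background and the complement share of 50% above it. The median difference was -0.26 for complement, -0.09 for coagulation and -0.01 for all genes. The median size of a difference, whatever its sign, was 0.38 for complement, 0.10 for coagulation and 0.20 for all genes. After quantile normalization 6 of 18 complement and 6 of 21 coagulation genes were called, against 2688 of all 12366, and the complement minus coagulation difference of medians was -0.10 in place of -0.18. These shares and medians are descriptions, and the contrast of the lists carries no p, since the genes were chosen with earlier results of these arrays known.

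Many of these genes are among the brightest of the liver, where calls were more frequent. Of the 790 genes with a mean of at least 12 over the 10 arrays, 29.5% were called, 9.62% higher and 19.9% lower. Among such bright genes, 2 of 14 complement genes rose and 6 fell, and 1 of 14 coagulation genes rose and 2 fell. The counts also moved with single arrays. Complement calls numbered 4 without mutant replicate 4 or control replicate 4 and 5 without control replicate 2 or 5. Coagulation calls numbered 1 without mutant replicate 1, 2 or 4 or control replicate 1, 2, 3 or 5, 2 without mutant replicate 3 and 3 without control replicate 4. Without mutant replicate 5 the complement and coagulation calls were 10 and 7. Calls over all genes moved as well, from 2488 to between 1391 and 1791 without any 1 array other than mutant replicate 5. Without mutant replicate 5 all genes gave 3531 calls. The complement calls were 1 higher and 5 lower after quantile normalization, 2 and 6 with array medians subtracted and 2 and 7 with 75th percentiles subtracted. The coagulation calls were 2 higher and 4 lower, 0 and 3, and 0 and 4 under the same settings. All genes gave 2688, 2656 and 2667 calls under these settings.

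**Figure D1:**
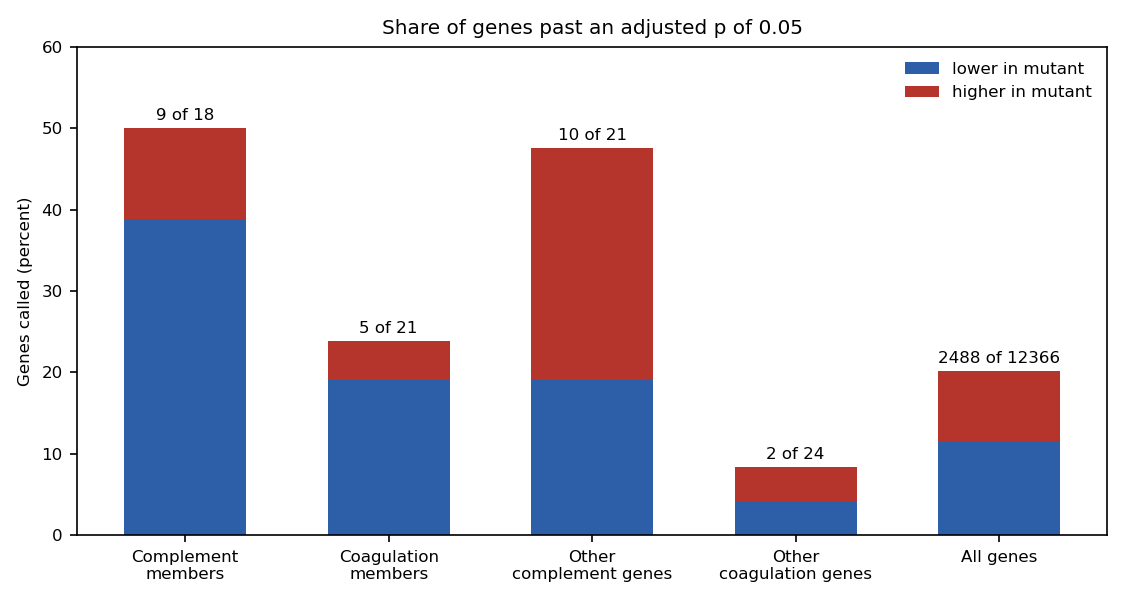
Share of genes called (percent) in each list, split into genes lower and higher in mutant liver, with the number called over the number measured above each bar. Complement genes were called in 9 of 18 cases and coagulation genes in 5 of 21, against 2488 of all 12366 genes. Bars for further complement and coagulation genes outside the list stand at 10 of 21 and 2 of 24.

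The lectin route held the largest rise and 2 of the falls. Masp1, a protease that starts the lectin route, stood at 12.88, 12.94, 12.84, 13.16 and 12.53 in mutant livers 1 to 5, against 11.86, 11.64, 11.84, 11.72 and 11.93 in control livers 1 to 5. All mutants lay above all controls, by at least 0.60. The difference was 1.07 (SE 0.11, adjusted p = 0.00236), a factor of 2.10. Masp1 was called in each of the 10 fits without 1 array, with adjusted p up to 0.0109. By alternative splicing the gene also gives MASP-3, which activates alternative pathway factor D, and which product each probe set reads was not determined. The other Masp1 probe sets differed by 0.63, 0.62, 0.36 and 0.01, and the last of these averaged 2.20 in mutants and 2.19 in controls, below the 25th percentile of all values. In the fit over all probe sets the pair at 0.63 and 0.62 passed (adjusted p = 0.0219 and 0.0243) and the pair at 0.36 and 0.01 did not (0.105 and 0.867).

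Masp2, the lectin pathway protease that cleaves C4 and C2, moved the other way. It stood at 10.58, 10.33, 10.81, 10.55 and 11.01 in mutant livers 1 to 5, against 11.25, 11.25, 11.30, 11.19 and 11.01 in control livers 1 to 5. Mutant 5 reached the level of control 5, while the other 4 mutants lay below every control. The difference was -0.54 (SE 0.12, adjusted p = 0.0176), it was called in each fit without 1 array, and its other probe set differed by -0.47. Masp1 and Masp2 thus differed in sign on every probe set with signal above the 25th percentile.

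The mannose-binding lectins, which recognise microbial sugars and carry the MASP proteases, were lower on average in mutants, and 1 of the 2 passed. Mbl1 stood at 11.91, 11.52, 12.003, 11.70 and 12.11 in mutant livers 1 to 5, against 12.11, 12.40, 12.28, 12.36 and 12.40 in control livers 1 to 5. The groups touched at 12.11 without crossing. Mbl1 fell by 0.46 (SE 0.11, adjusted p = 0.0238), a call that was lost without mutant replicate 4 or control replicate 2, 4 or 5 (adjusted p up to 0.0578). Mbl2 differed by -0.31 (SE 0.11, adjusted p = 0.084) and did not pass, except without control replicate 1 (adjusted p = 0.0378).

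Of the terminal proteins, 4 of 6 were called lower and 0 higher, and the 6 differences ranged from -2.10 to -0.22. C9, which polymerises to form the membrane pore, changed most of all 39 genes. It stood at 11.18, 11.06, 11.47, 12.31 and 12.63 in mutant livers 1 to 5, against 14.38, 13.37, 13.70, 13.85 and 13.85 in control livers 1 to 5. The highest mutant lay 0.74 below the lowest control, and the mutants spread over 1.57 log2 units. The difference was -2.10 (SE 0.33, adjusted p = 0.00708), lower by a factor of 4.29, and it was called in each fit without 1 array (adjusted p up to 0.0204).

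C8 is built from alpha, beta and gamma chains, and the beta and gamma chains were called. C8b, the beta chain, stood at 12.88, 12.34, 12.87, 12.65 and 12.84 in mutant livers 1 to 5, against 13.20, 12.97, 13.20, 13.40 and 13.55 in control livers 1 to 5. The groups did not overlap, and the difference was -0.55 (SE 0.14, adjusted p = 0.0236), lost without mutant replicate 4 or control replicate 4 (adjusted p up to 0.0558). C8g, the gamma chain, is a lipocalin and stood at 13.77, 13.53, 13.95, 13.51 and 14.12 in mutant livers 1 to 5, against 14.19, 14.19, 14.05, 14.22 and 14.12 in control livers 1 to 5. Mutant 5 lay among the controls and the other 4 mutants below them. C8g differed by -0.38 (SE 0.12, adjusted p = 0.0471), a call that held without mutant replicate 5 (adjusted p = 0.0079) and was lost without any other array (up to 0.0987). C8a, the alpha chain and the direct neighbour of C8b in the mouse genome, differed by -0.33 (SE 0.12, adjusted p = 0.0898) and did not pass.

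Hc, the mouse gene for C5, whose cleavage begins the terminal steps, shifted little but evenly. It stood at 13.76, 13.66, 13.74, 13.77 and 13.88 in mutant livers 1 to 5, against 14.01, 13.94, 13.96, 13.92 and 14.06 in control livers 1 to 5. All mutants lay below all controls. The difference was -0.22 (SE 0.05, adjusted p = 0.0202), called in each fit without 1 array (adjusted p up to 0.0452) but not once each array's median was subtracted (adjusted p = 0.053, the highest of a range from 0.00848 over 9 other settings). C6, which joins the pore after C5b, varied between 8.06 and 8.77 in mutants and between 8.16 and 9.70 in controls. Its difference of -0.43 (SE 0.27, adjusted p = 0.294) did not pass, with a 95% interval of -1.04 to 0.17.

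The bases before the start sites of C9 and Hc are shown because these genes fell without overlap between the groups, one by the largest and one by a small amount. The 250 bases before the RefSeq start are printed 5′ to 3′ on the strand of the gene, at chr15:6445096-6445345 on the plus strand for C9 and chr2:35061413-35061662 on the minus strand for Hc (GRCm38.p6). Capitals mark matches, on either strand, to TTGCNNAA, a core of C/EBP sites, in C9 and to a core of HNF1 sites in Hc, GTTAAT and ATT with any 1 base between them.
C9: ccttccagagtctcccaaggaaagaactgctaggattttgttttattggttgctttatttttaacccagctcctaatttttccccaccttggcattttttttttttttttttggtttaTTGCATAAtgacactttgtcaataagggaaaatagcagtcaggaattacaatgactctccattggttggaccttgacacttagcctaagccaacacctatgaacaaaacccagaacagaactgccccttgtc
Hc: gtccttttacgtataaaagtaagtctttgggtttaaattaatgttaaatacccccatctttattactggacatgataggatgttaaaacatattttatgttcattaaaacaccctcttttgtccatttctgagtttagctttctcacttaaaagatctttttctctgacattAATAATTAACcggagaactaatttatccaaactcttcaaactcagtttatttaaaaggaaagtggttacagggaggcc

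Vitronectin and clusterin bind terminal complexes in plasma and keep them from membranes. Clu stood at 15.92, 15.89, 15.76, 16.31 and 15.80 in mutant livers 1 to 5, against 15.54, 15.29, 15.58, 15.66 and 15.68 in control livers 1 to 5. All mutants lay above all controls, mutant 4 highest. Clu rose by 0.39 (SE 0.12, adjusted p = 0.0434), but the call held only without mutant replicate 3 or 5 among the fits that left out 1 array (adjusted p up to 0.0838 in the others). Its 4 probe sets differed by 0.29 to 0.39, and the groups overlapped on all but the brightest. None of the 4 passed in the limma fit over all probe sets (adjusted p = 0.0554 to 0.154). Vtn, vitronectin, differed by 0.03 (SE 0.07, adjusted p = 0.811), with a 95% interval of -0.13 to 0.20.

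In the classical route 1 of 3 genes was called. C4bp, which encodes the chain of the C4b-binding protein that helps inactivate C4b, stood at 13.05, 12.72, 13.02, 13.31 and 13.50 in mutant livers 1 to 5, against 13.55, 13.61, 13.50, 13.48 and 13.51 in control livers 1 to 5. Mutant 5 lay within the controls and the other 4 mutants below them. C4bp differed by -0.42 (SE 0.13, adjusted p = 0.0473), a call that held without mutant replicate 5 (adjusted p = 0.00766) and was lost without any other array (up to 0.0954). C1ra, a protease of C1, and C2, the protease subunit of the C3 convertase, differed by 0.20 and 0.23 (adjusted p = 0.119 and 0.110) and did not pass. C1ra passed without mutant replicate 5 (adjusted p = 0.0171).

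No alternative pathway gene measured was called, with 0 of 3 past the adjusted and 0 past the unadjusted threshold of 0.05 by limma. Cfp, properdin, which stabilises the C3 convertase and is made mainly by myeloid cells, stood at 9.50, 9.91, 9.52, 9.69 and 10.06 in mutant livers 1 to 5, against 9.09, 9.52, 9.78, 8.65 and 9.44 in control livers 1 to 5. The groups overlapped, and the difference was 0.44 (SE 0.21, adjusted p = 0.166). Of 12 markers of Kupffer cells and macrophages, 7 were called higher and 0 lower in mutants, against 8.62% and 11.5% of all genes. Their summed level was 14.28 to 14.78 in mutants and 13.48 to 14.24 in controls (log2). Their part in the Cfp values was not tested. Cfb, the protease of the alternative convertase, and Cfi, which cleaves C3b, differed by 0.11 and -0.12 (adjusted p = 0.30 and 0.18).

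**Figure D2:**
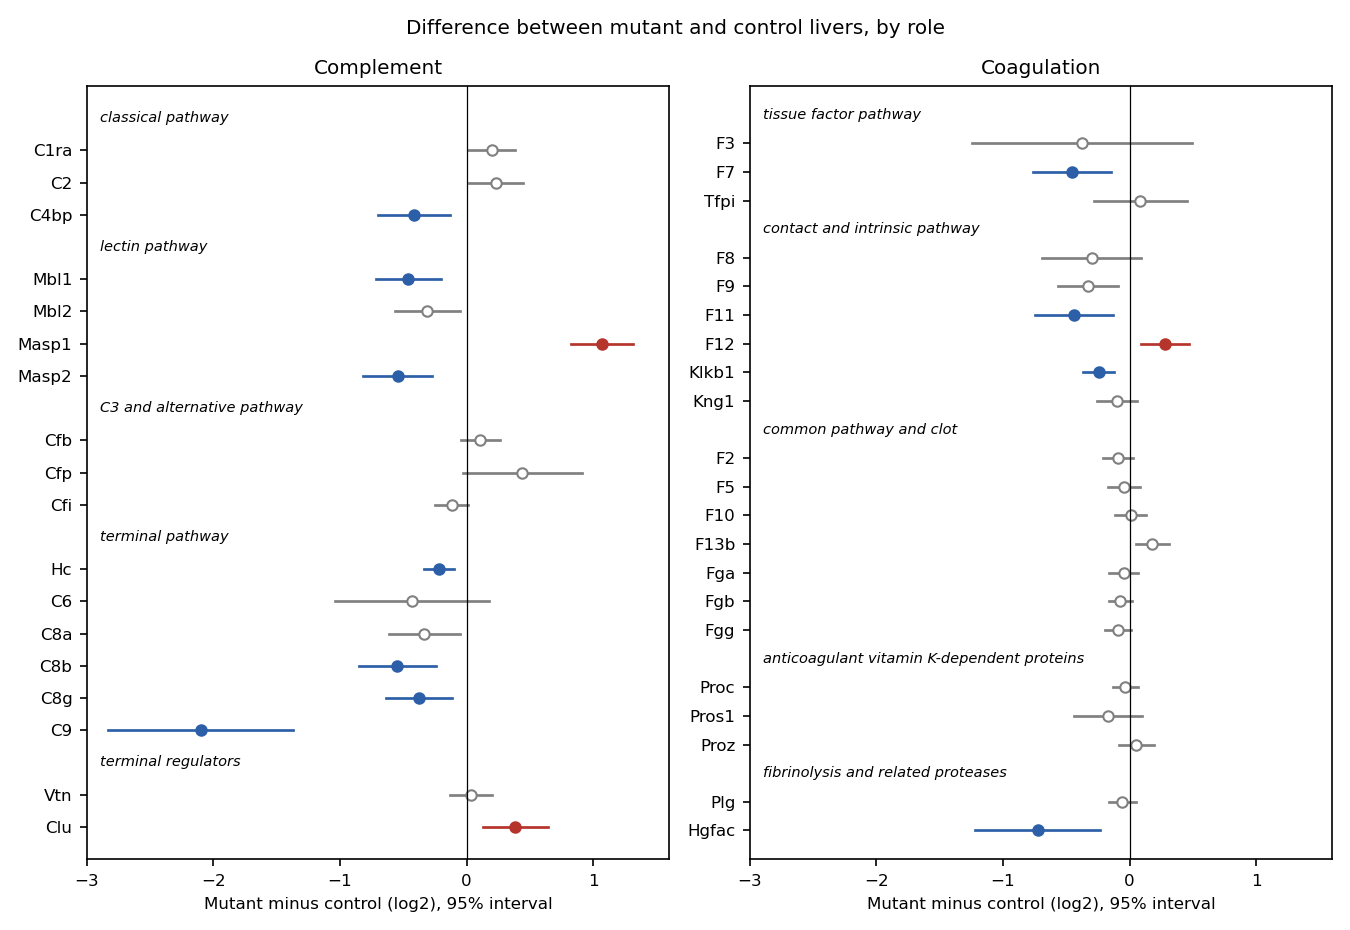
Mutant minus control difference (log2) of each of the 39 genes with its 95% interval, grouped by role, complement on the left and coagulation on the right. Filled blue points were called lower, filled red points called higher, and open grey points were not called. C9 at -2.10 and Masp1 at 1.07 lie farthest from 0, and the 7 genes of the common pathway lie between -0.09 and 0.18.

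The contact and intrinsic pathway, proteases and cofactors together, held 3 of the 5 coagulation calls, with 1 of 6 higher and 2 lower. Klkb1, plasma prekallikrein, stood at 12.90, 12.95, 12.93, 12.82 and 13.09 in mutant livers 1 to 5, against 13.14, 13.14, 13.24, 13.19 and 13.21 in control livers 1 to 5. All mutants lay below all controls. The difference was -0.25 (SE 0.05, adjusted p = 0.0173), called in each fit without 1 array (adjusted p up to 0.0427) and lost once array medians were subtracted (adjusted p = 0.0503, the highest of a range from 0.00419 over 9 other settings). F11, the paralogue that activates factor IX and lies next to Klkb1 in the mouse genome, stood at 11.47, 11.79, 11.73, 11.60 and 12.03 in mutant livers 1 to 5, against 12.17, 12.34, 12.26, 11.74 and 12.28 in control livers 1 to 5. Control 4 lay among the mutants, and all 5 mutants were below the other 4 controls. F11 differed by -0.44 (SE 0.14, adjusted p = 0.0493), and its call held only without mutant replicate 5 or control replicate 4 among the fits that left out 1 array (up to 0.107 in the others). It was also lost with array medians (adjusted p = 0.0516) or 75th percentiles (0.0591) subtracted.

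F12, factor XII, which starts contact activation together with prekallikrein, stood at 13.30, 13.48, 13.34, 13.53 and 13.08 in mutant livers 1 to 5, against 13.15, 12.95, 13.09, 13.04 and 13.07 in control livers 1 to 5. Mutants 1 to 4 lay above every control, and mutant 5 lay within the control range. F12 differed by 0.28 (SE 0.08, adjusted p = 0.0432), a call that held without mutant replicate 5 (adjusted p = 0.00511) and was lost without any other array (up to 0.0933). It was also lost with array medians (adjusted p = 0.101) or 75th percentiles (0.0518) subtracted. Kng1, the kininogen that prekallikrein cleaves to release bradykinin, differed by -0.10 (SE 0.07, adjusted p = 0.357).

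F9, the protease deficient in haemophilia B, differed by -0.33 (SE 0.11, adjusted p = 0.055) and missed the threshold. It passed without mutant replicate 5 (adjusted p = 0.00808) and with array medians or 75th percentiles subtracted (adjusted p = 0.0239 and 0.0379). F8, its cofactor, which is made mainly by endothelial cells, differed by -0.30 (SE 0.17, adjusted p = 0.259). Endothelial markers had a summed level of 12.64 to 12.88 in mutants and 12.76 to 13.13 in controls (log2). Of the 10, 0 were called higher and 1 lower, with 1 difference above 0 and 9 below. Their part in the F8 values was not tested.

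The promoters of F11 and Klkb1 are shown because the genes are neighbours and both were called lower. They lie at chr8:45262032-45262281 and chr8:45294836-45295085, both on the minus strand (GRCm38.p6), and are again the 250 bases before the RefSeq start, 5′ to 3′. Capitals mark matches to TGTTTAC, a core of FOXA sites, and to TTGCNNAA, on either strand. The matches in F11 and in Klkb1 do not overlap each other.
F11: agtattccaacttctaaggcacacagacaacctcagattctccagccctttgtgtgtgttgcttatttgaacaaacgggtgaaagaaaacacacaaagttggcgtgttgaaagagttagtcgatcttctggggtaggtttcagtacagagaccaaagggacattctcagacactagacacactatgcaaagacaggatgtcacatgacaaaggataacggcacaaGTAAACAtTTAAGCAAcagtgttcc
Klkb1: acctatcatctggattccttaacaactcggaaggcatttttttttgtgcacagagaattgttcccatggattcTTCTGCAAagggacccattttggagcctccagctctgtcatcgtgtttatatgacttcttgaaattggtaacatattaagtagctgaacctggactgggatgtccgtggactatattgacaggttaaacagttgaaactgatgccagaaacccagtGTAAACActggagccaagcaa

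RefSeq gave such a stretch for 31 of the 39 genes, 12 of them called, and for 27025 mouse genes. TGTTTAC occurred in 2 of the 31, F11 and Klkb1, and in 3.54% of all genes. TTGCNNAA occurred in 6 (C9, F9, F11, Klkb1, Fga and Fgb), or 19.4%, against 10.8% of all genes. The HNF1 core occurred in 3 (C4bp, Hc and F13b), or 9.68%, against 0.44%, and CAAAGNNCA, a core of HNF4 sites, in 4 (C8g, F7, F9 and Fga), or 12.9%, against 6.29%. Of the 12 called genes, 2 held the FOXA, 3 the C/EBP, 2 the HNF1 and 2 the HNF4 letters. A match is only a run of letters and shows no binding. The spellings were settled after several had been searched, so these shares are descriptions. Foxa1, the gene of a FOXA factor, differed by 0.68 (SE 0.22, adjusted p = 0.0550) and did not pass, though it did under 5 of 9 other settings. Foxa2, Hnf4a, Cebpa, Cebpb and Cebpd differed by 0.49, 0.18, -0.03, -0.12 and 0.58. None of these passed by limma (adjusted p = 0.19, 0.381, 0.913, 0.753 and 0.384). The part of these factors in the results was not tested.

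The tissue factor pathway held 1 call. F7, the protease that binds tissue factor, stood at 10.93, 10.89, 11.13, 10.95 and 11.50 in mutant livers 1 to 5, against 11.61, 11.76, 11.64, 11.26 and 11.38 in control livers 1 to 5. Mutant 5 lay within the controls and the other 4 mutants below all of them. F7 differed by -0.45 (SE 0.14, adjusted p = 0.0451), a call that held only without mutant replicate 5 or control replicate 4 among the fits that left out 1 array (adjusted p up to 0.0987 in the others). F7, F10 and Proz follow each other in the mouse genome, and F10 and Proz differed by 0.01 and 0.05 (adjusted p = 0.963 and 0.583). F3, tissue factor, was dim and variable, from 4.20 to 6.29 in mutants and from 4.91 to 6.37 in controls, and its difference of -0.38 (SE 0.39, adjusted p = 0.546) had a 95% interval of -1.25 to 0.49. Tfpi, the inhibitor of that complex, differed by 0.08 (SE 0.16, adjusted p = 0.78).

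The common pathway and the fibrinogen chains stayed close to the controls, with 0 of 7 called by limma and 1, F13b, at an unadjusted p under 0.05. Fibrinogen alpha, beta and gamma (Fga, Fgb and Fgg), adjacent genes whose products assemble into 1 protein, differed by -0.05, -0.07 and -0.09 (adjusted p = 0.585, 0.226 and 0.204). Their 95% intervals reached from -0.16 to 0.07, from -0.16 to 0.02 and from -0.19 to 0.01. Control means of 15.58 to 15.92 lie near the highest value of the arrays, 16.65, where differences can be compressed. F2, prothrombin, differed by -0.09 (SE 0.05, adjusted p = 0.277), and F5, the cofactor of factor X, by -0.04 (SE 0.06, adjusted p = 0.645). For F2 the 95% interval was -0.21 to 0.03 and for F5 -0.17 to 0.08.

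F13b, the carrier chain of the enzyme that cross-links fibrin, stood at 13.56, 13.50, 13.64, 13.50 and 13.45 in mutant livers 1 to 5, against 13.20, 13.33, 13.42, 13.40 and 13.39 in control livers 1 to 5. All mutants lay above all controls by a narrow margin. The difference of 0.18 (SE 0.06, adjusted p = 0.0527) missed the threshold, and it passed without mutant replicate 5 (adjusted p = 0.0362). Groups did not overlap for 9 of the 39 genes, or 23.1%, against 13.2% of all genes.

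None of the anticoagulant vitamin K-dependent proteins was called, with 0 of 3 at an unadjusted p under 0.05 by limma. Pros1, protein S, the cofactor of activated protein C, stood at 9.74, 9.65, 9.77, 10.0003 and 9.88 in mutant livers 1 to 5, against 9.89, 9.63, 9.99, 10.10 and 10.29 in control livers 1 to 5. The groups overlapped, with a difference of -0.17 (SE 0.12, adjusted p = 0.353). Proc, protein C, which inactivates factors V and VIII, differed by -0.03 (SE 0.04, adjusted p = 0.658), with a 95% interval of -0.13 to 0.07. Over the 7 vitamin K-dependent genes F2, F7, F9, F10, Proc, Pros1 and Proz, 1 was called lower and 0 higher. The median difference was -0.09.

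Hgfac and Plg are related plasma proteases. Hgfac, the activator of hepatocyte growth factor, stood at 11.64, 11.96, 12.49, 11.51 and 12.55 in mutant livers 1 to 5, against 12.88, 13.10, 12.68, 12.56 and 12.55 in control livers 1 to 5. The highest mutant and the lowest control both rounded to 12.55, and mutants 3 and 5 lay close to the controls. Hgfac differed by -0.72 (SE 0.22, adjusted p = 0.0459), the largest difference among the coagulation genes, and its call held only without mutant replicate 3 or 5 among the fits that left out 1 array (adjusted p up to 0.097 in the others). Plg, plasminogen, which dissolves fibrin once activated, differed by -0.06 (SE 0.05, adjusted p = 0.427), with a 95% interval of -0.17 to 0.05.

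**Figure D3:**
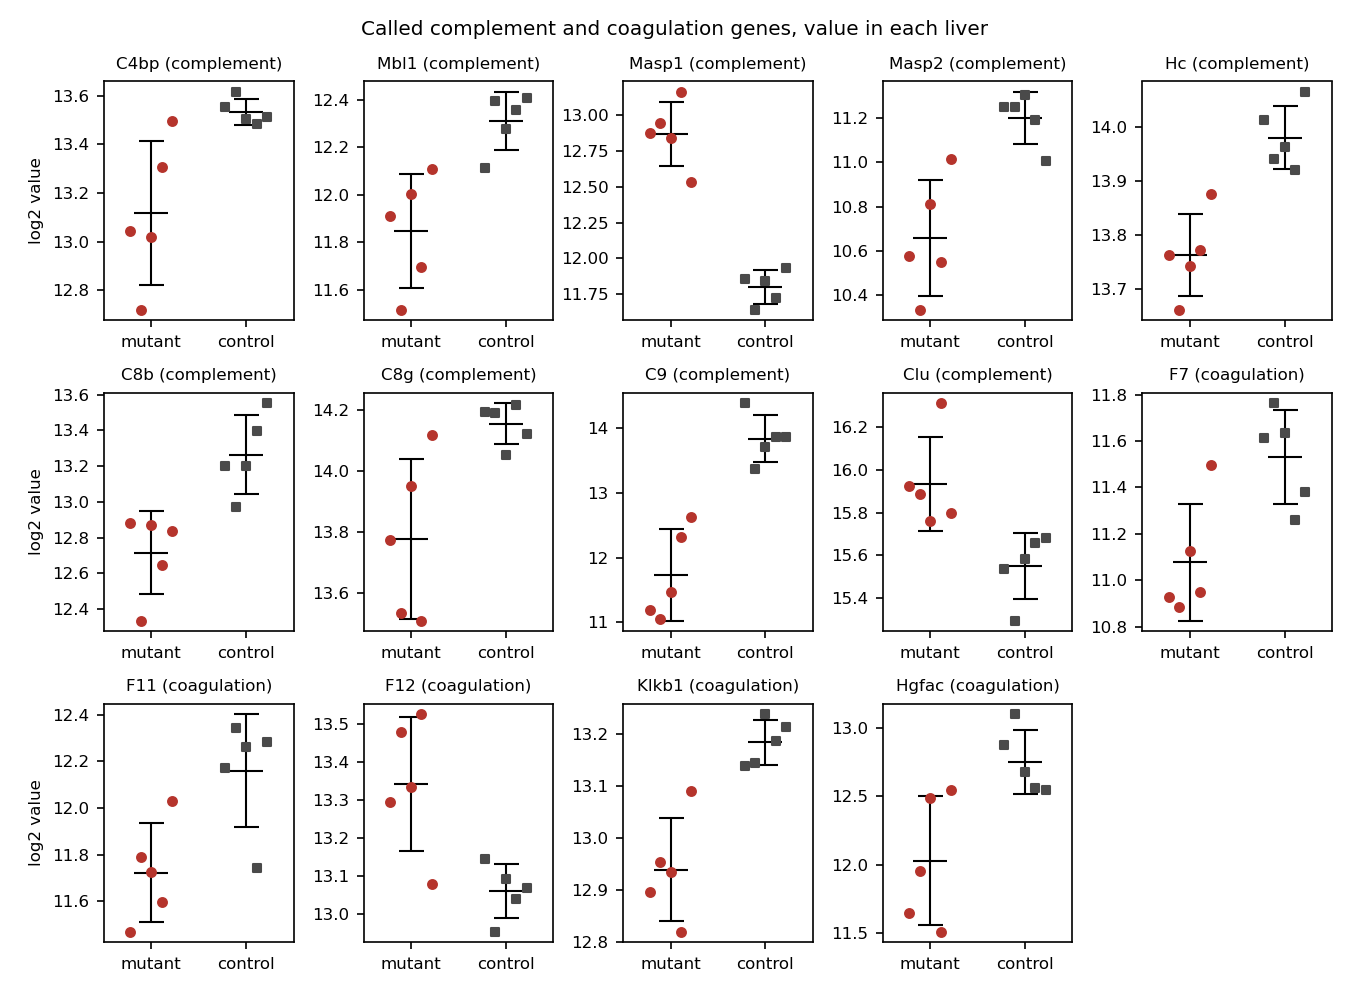
Log2 value in each of the 5 mutant livers (red circles) and 5 control livers (grey squares) for the 14 called genes, in replicate order within a group, with the mean and SD in black. Axes differ between panels and do not start at 0. Mutant replicate 5 is the mutant nearest the controls in 12 of the 14 panels.

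Mutant livers varied in how far they departed from the controls. Mutant 5 was the mutant nearest the control mean for 12 of the 14 called genes, mutant 1 for C8b and mutant 3 for Clu. Mutant 2 lay farthest for 7 of the 14, mutant 4 for 6 and mutant 1 for F11. Set against the average shift of mutants 1 to 4, the shift in mutant 5 amounted to a share of 0.314 (median over the 14). That share ran from 0.0552 for F12 to 0.735 for C8b, with 0.517 for C9 and 0.636 for Masp1. On both Dicer1 probe sets mutant 5 lay inside the range of the other mutants, at 5.84 and 6.98. Over all genes, calls went from 2488 to 3531 without mutant 5, the most of any fit without 1 array.

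**Figure D4:**
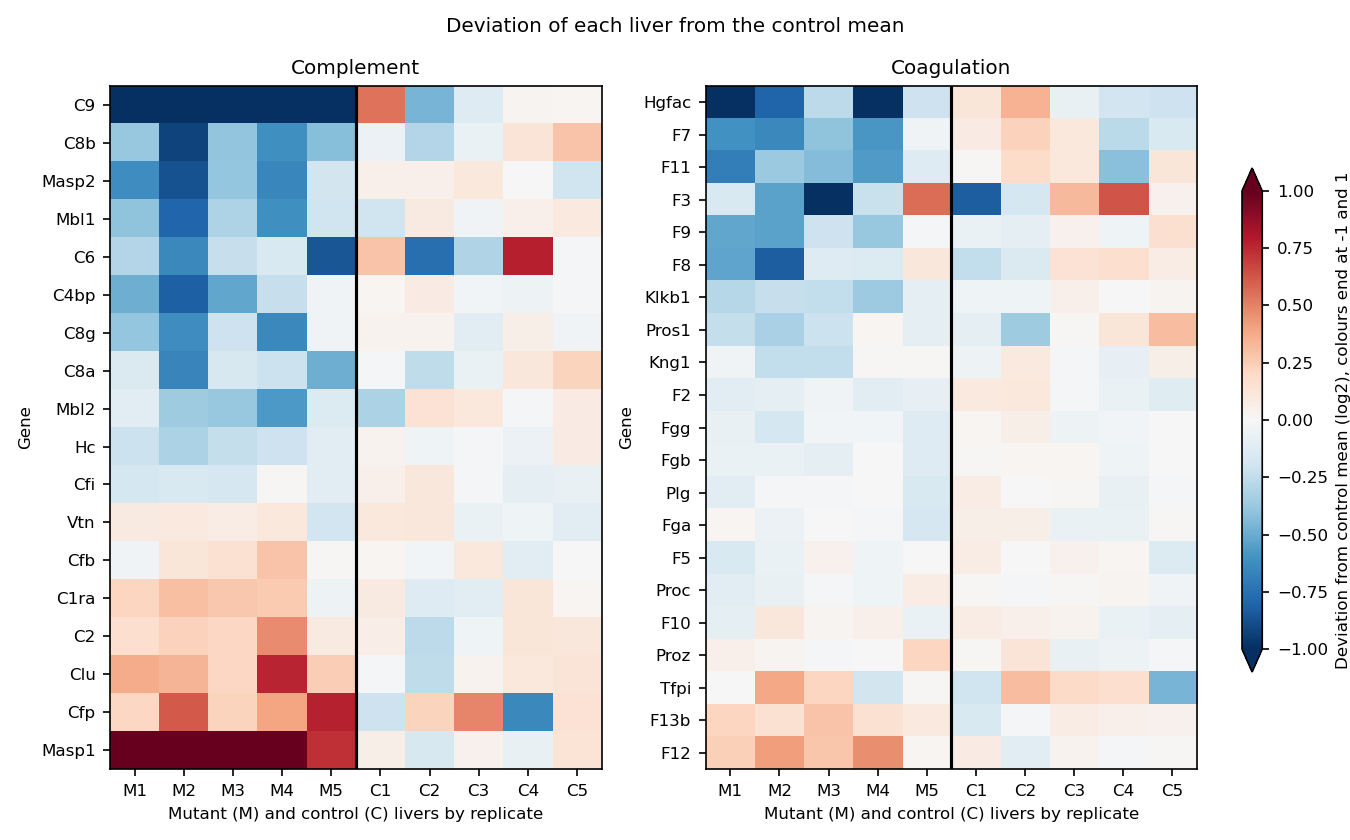
Deviation of each liver from the control mean (log2) for the 18 complement genes on the left and the 21 coagulation genes on the right, ordered by difference, with mutant livers M1 to M5 left of control livers C1 to C5. Colours end at -1 and 1, which C9 exceeds in all 5 mutants and Masp1 in 4 of 5, with Hgfac in mutants 1 and 4 and F3 in mutant 3 also past the end. The median size of deviation over the complement genes was 0.19 to 0.62 in mutants and 0.06 to 0.14 in controls, and over the coagulation genes 0.10 to 0.23 in mutants and 0.05 to 0.10 in controls. The control mean includes each control liver, which by itself makes control deviations smaller than those of mutants.

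Complement genes outside the 18 were called in 10 of 21 (47.6%), against 20.1% of all genes. Of the 10, 6 were higher and 4 lower in mutants, against 8.62% and 11.5% of all genes. The calls among the 18 leaned the other way, with 2 higher and 7 lower. The count outside the 18 was 2 to 5 in the fits without 1 array other than mutant replicate 5, where all genes gave 1391 to 1791 calls. C1qa, a chain of the C1q recognition protein that macrophages make, rose by 0.72 (SE 0.17, adjusted p = 0.0191). C1qb, another chain, rose by 0.70 (SE 0.19, adjusted p = 0.0331), and C3ar1, the receptor for C3a, rose by 0.96 (SE 0.25, adjusted p = 0.0297). Of the 12 macrophage markers given above 7 rose, C1qa and C1qb among them, and the other 5 did not pass. Their part was not tested. Colec11, a lectin that pairs with MASP proteases, rose by 0.42 (SE 0.10, adjusted p = 0.0200). It was called in each fit without 1 array, as was C1qa. The C1qb call was lost without mutant replicate 1, 2 or 4 or control replicate 1 or 5, and that of C3ar1 without mutant replicate 1 or 2 or control replicate 1, 2, 4 or 5.

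Serping1, the inhibitor of C1 proteases and kallikrein, fell by 0.27 (SE 0.07, adjusted p = 0.0295), and Cd59a, which blocks C9 assembly on cell membranes, fell by 1.54 (SE 0.43, adjusted p = 0.0347). Cd59a averaged 8.70 ± 0.96 in mutants and 10.24 ± 0.40 in controls (SD, n = 5 each). Its call held only without mutant replicate 5 or control replicate 1 (adjusted p up to 0.0803 without another array), and that of Serping1 only without mutant replicate 4 or 5 or control replicate 4 (up to 0.0659).

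Coagulation genes outside the 21 were called in 2 of 24, with 1 higher and 1 lower, or 8.33%, below the background of 20.1%. Vkorc1, the reductase that recycles vitamin K and the target of warfarin, fell by 0.41 (SE 0.08, adjusted p = 0.0118), and this held in each fit without 1 array. Ggcx, the carboxylase that uses vitamin K, and Vkorc1l1, the paralogue of Vkorc1, differed by -0.44 and -0.33 and did not pass (adjusted p = 0.131 and 0.128). Serpina10, the protein Z-dependent inhibitor of factor X, rose by 0.26 (SE 0.07, adjusted p = 0.0315), a call that held only without mutant replicate 5 or control replicate 5. Thbd, thrombomodulin, and Plat, the tissue plasminogen activator, differed by 0.91 and 0.27 (adjusted p = 0.0568 and 0.0901), and Plat lay below the 25th percentile of all values in both groups. With array weights or without mutant replicate 5 the count was 4, where all genes gave 3323 and 3531 calls. It was 1 without mutant replicate 2, 3 or 4 or control replicate 1, 2 or 4, where all genes gave 1391 to 1791.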

How the data were processed

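RNA of 5 mutant and 5 control livers was amplified from 100 ng and labelled with biotin, per the labels' protocols, with 1 array per animal. The authors deposited log2 values by probe set. The log base was read from the values (0.27 to 16.65), and no source used here names the background correction or normalization. The labels give no sex, litter or batch, and p-values reflect only how these livers varied. The number of arrays limits precision.

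Of 25995 probe sets, 37 controls were left out, 21613 carried 1 symbol in the platform annotation, 638 several and 3707 none. Checking by identifier against RefSeq (GRCm38.p6) changed 0 symbols and left 61 unmatched. A gene was read from its brightest probe set, averaged over the 10 arrays. Groups were compared two-sided in limma (version 3.58.1, under R 4.3.3) by lmFit and eBayes, with no block, adjusted over 12366 genes. The fit was tested on simulated data. Alternatives changed normalization, probe set choice, dim-gene filter, variance model, array weights, block and the arrays included.

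The member genes, lists and tests were chosen with earlier results of these arrays known. Values in every array are given for called genes and, in role groups without one, for the gene with the smallest p. Of the other complement and coagulation lists up to 6 genes with the smallest p are named, and of further lists up to 4. Markers below the 25th percentile and genes of FOXA, HNF4 and C/EBP factors are named besides. Motif spellings were settled after several had been searched, and the promoters printed and the bright-gene minimum of 12 were chosen after the values were seen.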

Additional observations from a re-analysis of the deposited data

Results flagged for a closer look

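Among 78 groups of 5 values (39 genes in mutants and in controls), 4 held 1 array far from the others by Dixon's criterion of 0.71, and chance flags about 1 group in 20. For C1ra, mutant replicate 5 was lowest at 12.28, with the next mutant at 12.55 and the highest at 12.64, a gap of 0.756 of the range. For Vtn it was lowest at 14.67, with the other mutants from 14.93 to 14.97, a gap of 0.879 of the range. For Proz it was highest at 11.87, with the others from 11.63 to 11.70, a gap of 0.713. For F11, control replicate 4 was lowest at 11.74, with the other controls from 12.17 to 12.34, a gap of 0.713.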

How the results depend on the processing

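The fits without 1 array gave 1391 to 3531 called genes, 4 to 10 called complement genes, 1 to 7 called coagulation genes and a complement minus coagulation median of -0.21 to -0.14, against 2488, 9, 5 and -0.18. Quantile normalization brought that median to -0.10. Subtraction of the array median brought the coagulation calls to 3 (0 higher, 3 lower), with 2656 calls over all genes. With the replicate number as a block, complement calls were 4 (1 higher, 3 lower), coagulation calls 3 and all calls 1836. Same-numbered mutant and control arrays correlated between -0.18 and 0.09 in their deviations and 1 of 5 mutants correlated best with its own number, so the numbers were not taken as pairs. Among the called genes, C9, Masp1 and C8b were called under all 9 other settings. Quantile normalization and the largest-variance probe set left C4bp (adjusted p = 0.0699 and 0.0523), C8g (0.0717 and 0.0524) and Clu (0.0907 and 0.0766) uncalled. F12 was lost with array medians (0.101) or 75th percentiles (0.0518) subtracted or dim genes left out (0.050). F11 was lost with array medians (0.0516) or 75th percentiles (0.0591) subtracted, probe sets averaged (0.0516) or the largest-variance probe set (0.0544). C4bp, C8g and F11 each had 1 probe set. Their differences stayed the same under the probe set settings, and only the fit and adjustment over all genes changed. Differences near 0 turned sign for Tfpi (-0.0041 with probe sets averaged, -0.0927 and -0.0102 on 2 other probe sets, -0.0318 to 0.16 without 1 array), F5 (0.0056) and Proc (0.0201) after quantile normalization, and F10 (-0.0191 to 0.032 without 1 array). Il1rap turned to 0.62 with probe sets averaged and 1.72 on the probe set of largest variance. The alternatives for the genes outside the 39 were added after the data were seen. The causes were not tested.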

Other observations

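Interleukin 6 and interleukin 1 drive the acute phase output of hepatocytes. The interleukin 6 receptor Il6ra averaged 9.83 ± 0.34 in mutants and 10.65 ± 0.44 in controls (SD, n = 5 each), a difference of -0.81 (SE 0.23, adjusted p = 0.0367). Its partner Il6st differed by 0.30 (SE 0.09, adjusted p = 0.0458). The Il6st call held only without mutant replicate 5 among the fits that left out 1 array (adjusted p up to 0.0988), and that of Il6ra only without mutant replicate 5 or control replicate 1 or 2 (up to 0.0799). Il1rap, the accessory protein of the interleukin 1 receptor, differed by -0.51 (SE 0.12, adjusted p = 0.0207) on its brightest probe set and by 1.72 on another.

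Among 16 acute phase genes, 1 rose and 1 fell, or 12.5% called, against 20.1% of all genes. Lcn2, a lipocalin that binds iron carriers of bacteria, rose by 3.89 (SE 0.58, adjusted p = 0.00652). The gene that fell was Apcs, serum amyloid P, which averaged 13.37 ± 0.40 in mutants and 14.15 ± 0.19 in controls (SD, n = 5 each), a difference of -0.78 (SE 0.19, adjusted p = 0.0205), called in each fit without 1 array. Against the same 20.1% of all genes, 21.1% of 19 other secreted hepatocyte products were called, and 1 rose and 3 fell. They were ceruloplasmin Cp at 0.36 (SE 0.07, adjusted p = 0.0131), and fetuin-B Fetub, the zinc-binding glycoprotein Azgp1 and Ambp at -0.83, -0.35 and -0.16 (adjusted p = 0.0116, 0.0128 and 0.0347).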
